A study of Rattus norvegicus with 4 samples.

Results

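Semaphorins are guidance cues, and this account follows them, their plexin and neuropilin receptors, and the Crmp, Dpysl, Mical and Micall proteins that act below these receptors through wild-type and Pax6 mutant rat telencephalon. Members were the probe sets whose single gene symbol began with Sema (classes 3 to 7), Plxna, Plxnb, Plxnc, Plxnd, Dpysl or Mical, or was Nrp1, Nrp2 or Crmp1. They numbered 67 of 31042 non-control probe sets on the array and covered 38 genes. Of these, 43 probe sets of 30 genes were bright enough to test, with a mean over the 4 arrays at or above 3.21 on the log2 scale (the 40th percentile of all probe sets). The other 8 genes, Sema3b, Sema3d, Sema3e, Sema4d, Sema4f, Sema6c, Mical2 and Micalcl, lay under this level in every probe set and were not tested.

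Each genotype was measured on 2 one-colour arrays of telencephalon, the front part of the embryonic forebrain, at E11.5 on the Sprague-Dawley background. One genotype was wild type, and the other was homozygous for the rSey2 allele of Pax6, a paired-box transcription factor of the dorsal telencephalon and eye. The design text speaks of 13 telencephalons, repeated for each genotype, so an array stands for pooled embryos. The labels call the arrays biological replicates and name no litters. A p-value here therefore reflects only how these arrays vary, which may be partly technical.

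Values are deposited GCRMA values on the log2 scale, and a difference is the mutant mean less the wild-type mean. Median values over the 18625 tested probe sets lay between 8.22 and 8.35 in the 4 arrays, and 0 of those probe sets passed a limma adjusted p of 0.05 (680 had an unadjusted p under 0.05). The Pax6 probe set averaged 11.80 in wild type (SD 0.07, n = 2) and 11.71 in the mutant (SD 0.11, n = 2). Its place relative to the lesion is not given in the sources used here, so it does not check the labels. Fabp7, a radial glial gene known to depend on Pax6, read 11.83 and 12.15 in wild type but 4.89 and 4.56 in the mutant. That is the direction that the genotype labels give. Even this difference had a limma adjusted p of 0.196, so an adjusted p above 0.05 here does not show an unchanged gene. Of 11 markers of telencephalic neuroepithelium measured here, all passed the brightness filter in both genotypes, among them Lhx2, Six3, Emx2 and Sox2.

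Semaphorins are secreted (class 3) or membrane-bound proteins that steer axons, migrating cells and growing vessels, mostly by repulsion. Plexins are their main receptors and act on small GTPases inside the cell, while class 3 semaphorins usually need a neuropilin as the binding subunit. Crmp and Dpysl proteins bind tubulin and relay the signal to microtubules, and Mical enzymes oxidise actin filaments next to plexins. In the early forebrain these genes are known from axon tracts, from migrating neurons and from the vessels that invade the neural wall.

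Plexin C1 and plexin D1 had the largest differences among the tested member genes, with higher values in the mutant. Plxnc1 encodes the receptor for the membrane-anchored semaphorin 7A, and Plxnd1 encodes a receptor for semaphorin 3E that is best known from vessel patterning. The brighter Plxnc1 probe set, 1398644_at, read 7.30 and 7.65 in wild type, against 8.17 and 8.49 for the mutant pair. Both mutant arrays lay above both wild-type arrays, and the closest pair of arrays differed by 0.52. The difference was 0.85 (SE 0.20, 95% interval 0.25 to 1.46, n = 2 per genotype), a 1.81-fold higher value (limma unadjusted p = 0.0197, adjusted p = 1). The other Plxnc1 probe set, 1376872_at, read 6.81 and 6.90 in wild type and 7.42 and 7.70 in the mutant. It was separate in the same way, again with 0.52 between the closest arrays. Its difference was 0.71 (SE 0.13, 95% interval 0.30 to 1.12), or 1.64-fold (limma unadjusted p = 0.0107, adjusted p = 1). The 2 probe sets were measured on the same RNA and are not independent replicates. In bulk tissue, more cells that carry a transcript and more transcript per cell cannot be told apart.

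Plxnd1 (1389341_at) read 7.005 and 6.89 in wild type and 7.41 in both mutant arrays. The genotypes were separate by 0.40 at the closest pair. The difference was 0.46 (SE 0.08, 95% interval 0.22 to 0.70), or 1.38-fold (limma unadjusted p = 0.00823, adjusted p = 1). Among all tested probe sets, 0.875% had a larger difference in either direction than the brighter Plxnc1 probe set, 1.52% than the other, and 4.99% than Plxnd1. With any 1 array left out, the 3 probe sets stayed higher in the mutant, from 0.57 to 1.03 for Plxnc1 and from 0.41 to 0.52 for Plxnd1.

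**Figure D1:**
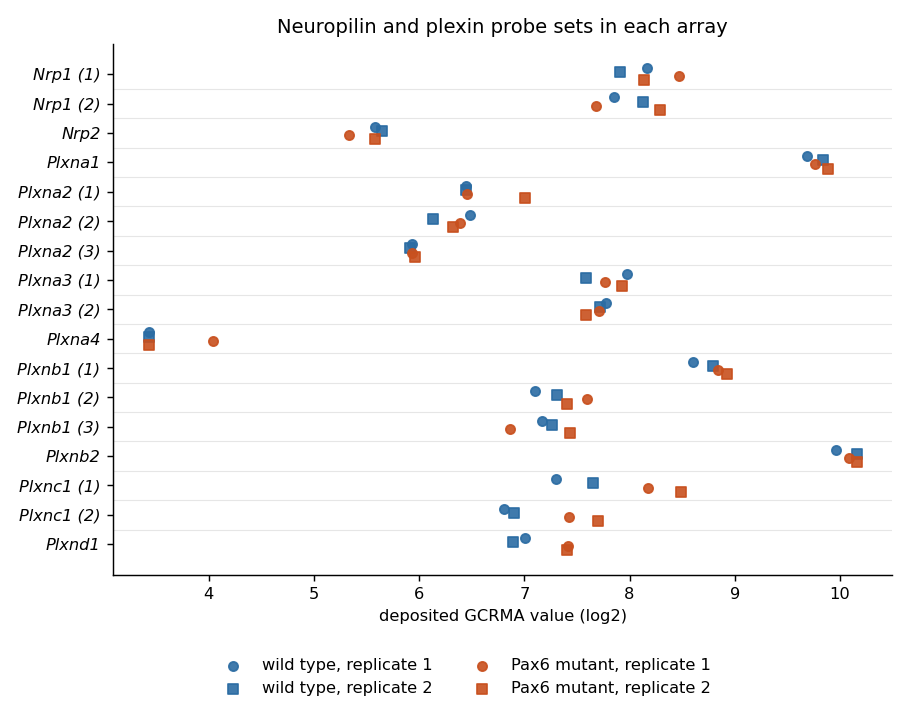
Deposited GCRMA value (log2, horizontal axis) of the 17 tested neuropilin and plexin probe sets in each of the 4 arrays; numbers in brackets order the probe sets of a gene by mean value. Both Plxnc1 probe sets and Plxnd1 have both mutant points (orange) to the right of both wild-type points (blue). Both brighter Plxnb1 rows and the brightest Plxna2 row are also apart in this direction, by less, while most other rows are mixed.

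These were the 3 member probe sets with an unadjusted limma p under 0.05, all higher in the mutant and 0 lower, out of 43 tested. Over all tested probe sets the share at that unadjusted p was 3.65%, with 1.74% higher and 1.91% lower, and the share called at an adjusted p of 0.05 was 0%. Leaving out wild-type replicate 1 left 1 (Plxnd1), against 3.20% of all tested probe sets in that fit. Leaving out mutant replicate 1 gave 7 (6.38% of all), and leaving out mutant replicate 2 gave 5 (6.17% of all). The genotypes did not overlap in 9 member probe sets (20.9%), against 23.2% of all tested probe sets. Groups that did not overlap and differed by at least 0.5 on average were found for 2 member probe sets. Both were of Plxnc1 and higher in the mutant. The share over all tested probe sets was 3.06% (1.46% with the mutant higher). Separation from a single array is easier to reach, and the shares of all probe sets rose as well. Leaving out a wild-type array gave 4 member probe sets (replicate 1, 6.40% of all) or 3 (replicate 2, 6.63% of all), and leaving out a mutant array gave 7 (replicate 1, 7.57% of all) or 5 (replicate 2, 8.27% of all).

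The sequences upstream of the annotated starts of Plxnc1 and Plxnd1 are shown because these genes had the member probe sets at an unadjusted p under 0.05. Each is the 250 bases before the start on the minus strand, from RefSeq, build GRCr8, at chr7:31430606-31430855 for Plxnc1 and chr4:150715188-150715437 for Plxnd1. Capitals mark CG dinucleotides.
Plxnc1: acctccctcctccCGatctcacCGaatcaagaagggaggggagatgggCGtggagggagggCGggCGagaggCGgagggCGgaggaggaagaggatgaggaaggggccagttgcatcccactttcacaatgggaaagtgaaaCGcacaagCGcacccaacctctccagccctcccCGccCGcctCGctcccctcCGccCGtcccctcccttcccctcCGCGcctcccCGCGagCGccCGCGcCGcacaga
Plxnd1: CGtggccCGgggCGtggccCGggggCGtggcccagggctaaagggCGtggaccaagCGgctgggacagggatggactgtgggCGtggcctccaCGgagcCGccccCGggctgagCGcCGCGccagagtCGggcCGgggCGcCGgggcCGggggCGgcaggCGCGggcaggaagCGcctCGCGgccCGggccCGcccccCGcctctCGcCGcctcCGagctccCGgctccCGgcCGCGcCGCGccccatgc

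The Plxnc1 window held 22 CG dinucleotides and the Plxnd1 window 37, against a median of 5 over 33469 promoter windows of this length. The table had 30 windows for 28 of the 38 member genes, with a median of 13.5 CG dinucleotides and 63.4% G and C (51.2% over all windows). On both strands, the letters TAATTA, a core that many homeodomain proteins bind, occurred in 1 member window (Sema6b, 4.86% of all windows). The E-box CAGCTG, bound by basic helix-loop-helix factors, occurred in 7 (11.97% of all windows), among them Nrp2, Plxnb1 and Sema3g. Neither motif was found in the Plxnc1 or Plxnd1 window, which says only that the letters are not in these bases.

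The remaining plexins lay closer to 0. By the brightest probe set of each gene, 8 of 8 plexin genes were higher in the mutant, with a median difference of 0.23. The number was 6 without wild-type replicate 1 or mutant replicate 2 and 7 without either of the others. Plexins of the A group pair with neuropilins or bind class 6 semaphorins directly. Plxna1 (1374453_at) read 9.68 and 9.84 in wild type and 9.76 and 9.88 in the mutant. The genotypes overlapped, with a difference of 0.06 (95% interval -0.26 to 0.37), and the sign turned without wild-type replicate 1 (-0.02) or mutant replicate 2 (-0.002).

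Plxna2, a receptor of semaphorin 6A, read 6.45 in wild type and in mutant replicate 1, and 7.004 in mutant replicate 2 (1390274_at). Its difference of 0.28 (SE 0.23) thus rested on 1 array and was 0.007 without it. The 2 dimmer Plxna2 probe sets differed by 0.05 and 0.02. Plxna4 (1397668_at), which binds both class 3 and class 6 ligands, read 3.43 in all arrays except mutant replicate 1, at 4.04. Its difference was 0.30 (SE 0.25) and 0 without that array. The 2 tested probe sets of Plxna3 had opposite signs, with differences of 0.07 and -0.10, and the first ran from -0.13 to 0.27 with 1 array left out.

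Plexins of the B group bind class 4 semaphorins, and Plxnb2 is known from neural tube closure. Plxnb1 had 3 tested probe sets. The brightest, 1374444_at, read 8.60 and 8.79 in wild type and 8.84 and 8.93 in the mutant, with a difference of 0.19 (SE 0.11, limma unadjusted p = 0.168). The next, 1378694_at, read 7.10 and 7.31 against 7.60 and 7.41, with a difference of 0.30 (SE 0.13, limma unadjusted p = 0.0965). In both the genotypes were separate, by 0.05 and 0.10 at the closest pair. The third, 1384912_at, overlapped and differed by -0.07 (SE 0.24), so the Plxnb1 probe sets did not share a sign. Plxnb2 (1371411_at) read 9.97 and 10.16 in wild type and 10.09 and 10.16 in the mutant. The difference of 0.06 (95% interval -0.26 to 0.38) was within the spread between arrays.

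The neuropilins are the binding subunits for class 3 semaphorins and also bind vascular endothelial growth factor. Nrp1 had 2 bright probe sets. The one at 1373577_at read 8.17 and 7.91 in wild type and 8.47 and 8.14 in the mutant, and the one at 1370570_at read 7.85 and 8.12 against 7.68 and 8.29. In both, the genotypes overlapped. The differences were 0.26 (SE 0.18; 0.10 without mutant replicate 1) and -0.0006 (SE 0.27), so a higher Nrp1 value was not shared by both probe sets. Nrp2, the preferred partner of semaphorin 3F, read 5.58 and 5.64 in wild type and 5.34 and 5.58 in the mutant (1382995_at), with a difference of -0.15 (SE 0.12). Its second probe set read 2.09 in every array.

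**Figure D2:**
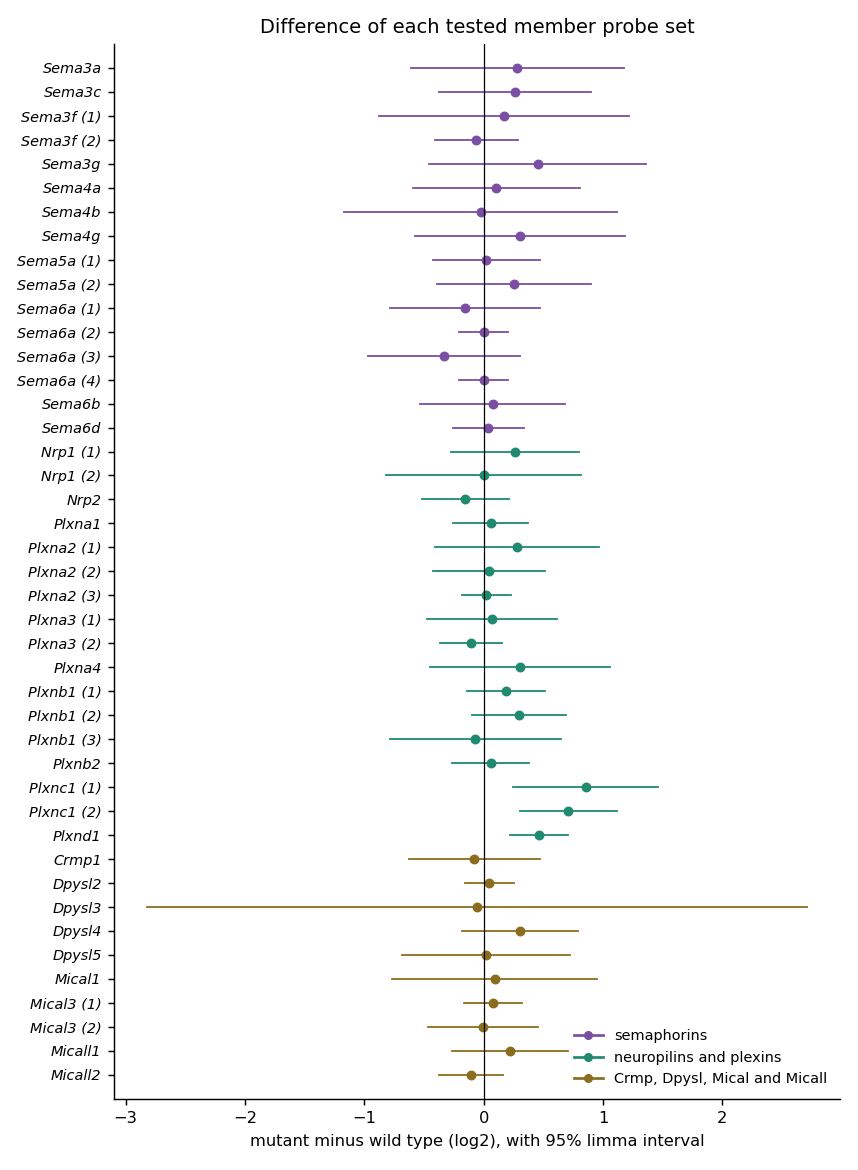
Difference (mutant less wild type, log2) for each of the 43 tested member probe sets (points), with the 95% limma interval (lines) and 2 arrays per genotype. The intervals of both Plxnc1 probe sets (from 0.25 and 0.30) and of Plxnd1 (from 0.22) lie above 0, and all other intervals cross it; Dpysl3 has the widest, from -2.82 to 2.71.

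Among the ligands, 9 of 11 tested semaphorin genes were higher and 2 lower by their brightest probe set, with a median difference of 0.11 and 0 past an unadjusted limma p of 0.05. One of the 9, Sema4g, passed the brightness filter through a single mutant array, and without it 8 of 10 were higher. Without mutant replicate 2 the count was 5 higher and 6 lower and the median -0.07. All 4 tested class 3 genes were higher, from 0.17 to 0.45. Without mutant replicate 2, however, only 2 were higher, 2 were lower and the median was -0.01. For all 4, replicate 2 exceeded replicate 1 in both genotypes, so leaving out 1 array also unbalances the replicate numbers. Each mutant array was above the wild-type array of the same number for these genes, though no label makes the numbers pairs. Sema3g, a secreted semaphorin made by endothelium, read 6.24 and 6.43 in wild type and 6.43 and 7.15 in the mutant (1391856_at). Mutant replicate 2 stood alone, and the other mutant array equalled a wild-type array. The difference was 0.45 (SE 0.30, limma unadjusted p = 0.219), and 0.10 without mutant replicate 2.

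Sema3c (1376319_at), a cue that attracts some cortical axons, read 7.11 and 7.35 in wild type and 7.27 and 7.72 in the mutant, with a difference of 0.27 (SE 0.21) that was 0.04 without mutant replicate 2. Sema3a, the classical repellent acting through Nrp1, was close to the brightness limit at 3.29 and 3.47 in wild type and 3.31 and 4.02 in the mutant (1387723_at). Its difference was 0.28 (SE 0.29) and turned to -0.07 without mutant replicate 2. Both genes had their highest value in mutant replicate 2. The brighter Sema3f probe set differed by 0.17 (SE 0.34), which turned to -0.17 when mutant replicate 2 was left out and to -0.10 when wild-type replicate 1 was, and the dimmer by -0.06 (SE 0.11).

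The class 4 and class 5 semaphorins are membrane proteins. Sema4a, which also acts on immune cells, read 8.38 and 8.49 in wild type and 8.26 and 8.82 in the mutant (1388745_at), with a difference of 0.11 (SE 0.23). Sema4b (1374678_at) read 7.40 and 7.95 in wild type and 7.27 and 8.03 in the mutant. For both the mutant arrays lay on either side of the wild-type pair. Sema4b differed by -0.02 (SE 0.38), with a gap of 0.77 between its 2 mutant arrays. Sema4g (1380248_at) read 3.16 in both wild-type arrays, 3.83 in mutant replicate 1 and 3.11 in mutant replicate 2. It passed the brightness filter through that 1 mutant array, and its difference of 0.30 (SE 0.29) became -0.06 without it. Sema5a, which carries thrombospondin repeats, read 7.50 and 7.42 in wild type and 7.32 and 7.65 in the mutant (1390437_at), with a difference of 0.02 (SE 0.15).

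Class 6 semaphorins span the membrane and bind plexins of the A group. Sema6a read 8.11 and 8.19 in wild type and 7.75 and 8.24 in the mutant (1382868_at). Its difference of -0.16 (SE 0.21) turned to 0.09 without mutant replicate 1. Its other tested probe sets gave -0.33 (SE 0.21) and, for a pair of them, the same value in all 4 arrays. Sema6d, a ligand of plexin A1, read 8.28 and 8.46 in wild type and 8.40 and 8.42 in the mutant (1389353_at), and its difference of 0.04 (95% interval -0.26 to 0.34) was within the spread. Sema6b differed by 0.08 (SE 0.20).

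**Figure D3:**
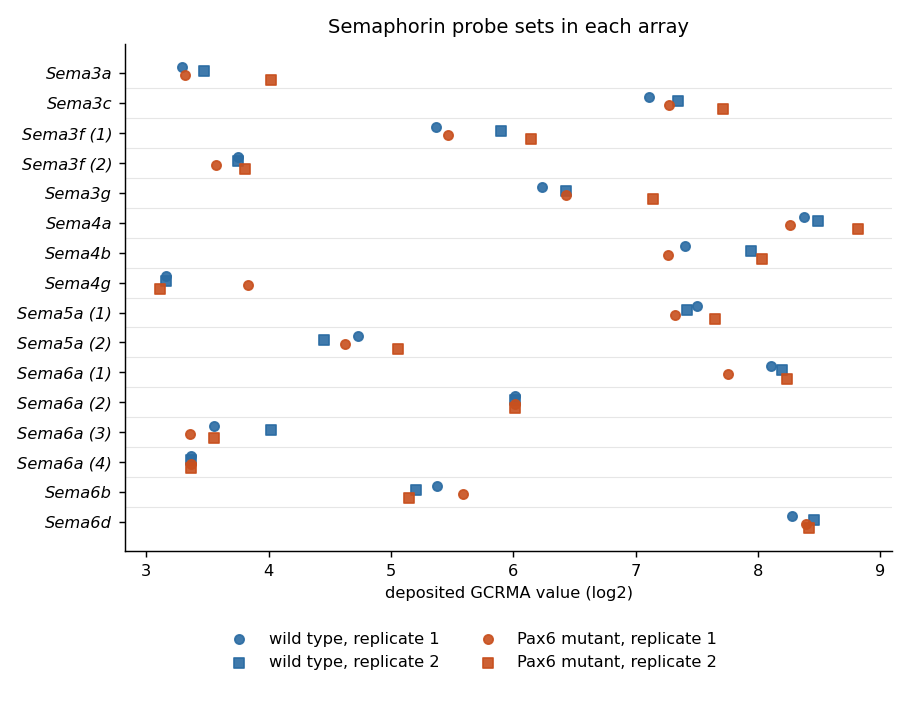
Deposited GCRMA value (log2, horizontal axis) of the 16 tested semaphorin probe sets in each of the 4 arrays; numbers in brackets order the probe sets of a gene by mean value. In Sema3a, Sema3c, Sema3g and Sema4a the mutant replicate 2 point (orange square) lies right of the other 3. The same holds for both Sema3f rows, Sema4b, both Sema5a rows and the brightest Sema6a row. No semaphorin row has the genotypes apart.

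Several ligands of bright receptors were dim here. Sema3e, the ligand of plexin D1, read 2.88 in all 4 arrays, and Sema4d, the ligand of plexin B1, read 2.09 in all 4. Sema3b (2.12) and Sema3d (2.07, the lowest value of the table) were also the same in every array. At such values no difference between genotypes can be measured, and a dim probe set does not show that the gene is silent. Sema7a, the ligand of plexin C1, had 0 probe sets under its symbol in the annotation used and so could not be measured here.

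Of the 9 tested genes for cytosolic effectors, 6 were higher, 3 lower and 0 past an unadjusted limma p of 0.05, with a median difference of 0.05 (without mutant replicate 2, 4 higher, 5 lower and a median of -0.15). Dpysl2, the tubulin-binding mediator of semaphorin 3A signals, read 13.63 in each wild-type array, against 13.66 and 13.69 in the mutant (1371694_at). The genotypes did not overlap, yet the difference was 0.05 (95% interval -0.16 to 0.25). Crmp1 (1387899_at), its close relative in neurons, read 11.24 and 11.49 in wild type and 11.11 and 11.46 in the mutant, with a difference of -0.08 (SE 0.18). Dpysl5 (1387141_at), which acts on dendrite growth, read 10.12 and 10.49 against 10.11 and 10.54, with a difference of 0.02 (SE 0.23). The last 2 genes differed more between the arrays of a genotype than between genotypes.

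Dpysl4 (1371049_at), another member of the tubulin-binding family, read 6.64 and 7.01 in wild type and 7.15 and 7.12 in the mutant. Both mutant arrays lay above the wild-type arrays, and the difference was 0.31 (SE 0.16, limma unadjusted p = 0.146), or 0.12 without wild-type replicate 1. Dpysl3 (1388101_at), a marker of newborn neurons in this family, read 3.74 and 4.76 in wild type and 3.16 and 5.23 in the mutant. The gap of 2.07 between its mutant arrays was the widest of any member, and its difference of -0.05 (SE 0.91) ran from -1.09 to 0.98 with 1 array left out. No genotype difference under that size could be seen for Dpysl3 at this precision.

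Mical enzymes disassemble actin below plexins, and the Mical-like proteins act on Rab-dependent membrane traffic. Micall1 (1389187_at) read 7.77 and 7.69 in wild type and 7.77 and 8.13 in the mutant, with a difference of 0.22 (SE 0.16) that was 0.04 without mutant replicate 2. Micall2 (1379059_at) read 4.69 and 4.80 in wild type and 4.60 and 4.69 in the mutant, with a difference of -0.10 (SE 0.09). In each of these genes a mutant array equalled a wild-type array. Mical1 differed by 0.09 (SE 0.28) and the brighter Mical3 probe set by 0.08 (SE 0.08). All Mical2 probe sets lay under 2.42 in every array.

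Spread between arrays was as large as the genotype difference for most members. In 36 of 43 tested probe sets the gap between the 2 arrays of at least 1 genotype exceeded the difference between genotypes, which was so for 84.3% of all tested probe sets. Exact repeats also limited the measurement: 12 member probe sets had the same deposited value in at least 2 arrays (27.9%, against 11.7% of all tested), and 2 of them, both of Sema6a, in all 4. Their cause was not tested.

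**Figure D4:**
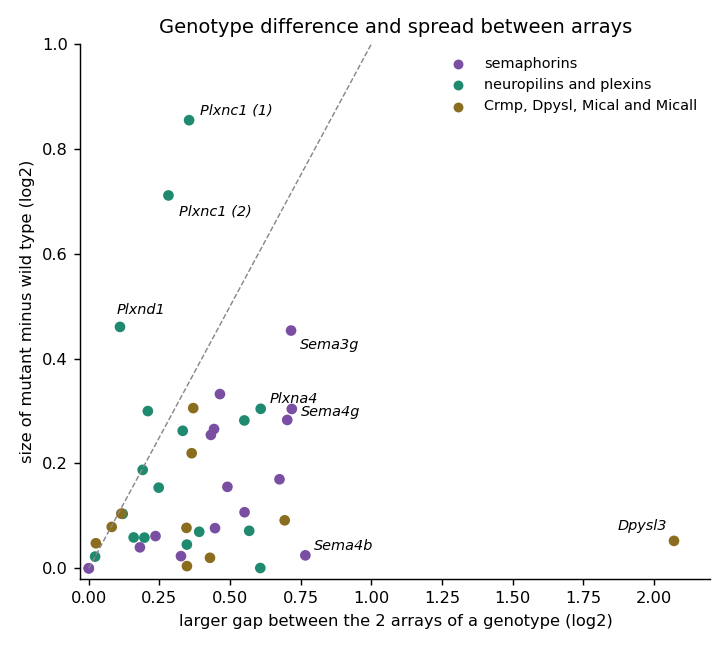
Size of the mutant minus wild-type difference (log2, vertical axis) against the larger of the 2 gaps between arrays of a genotype (log2, horizontal axis) for the 43 tested member probe sets; the dashed line marks equality. Both Plxnc1 probe sets and Plxnd1 lie well above the line, and Dpysl3 lies far to the right with a gap of 2.07.

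Over the 30 tested member genes, 24 were higher in the mutant and 6 lower by their brightest probe set, with a median difference of 0.09. Over all 9840 tested genes, 49.7% were higher and the median was 0. Without genes that had 3 of 4 arrays under the brightness limit (Sema4g among the members), a choice made after the values were seen, 23 of 29 members and 49.7% of all genes were higher. The member count moved with single arrays: 16 of 30 were higher without mutant replicate 2 (42.9% of all genes) and 19 of 30 without wild-type replicate 1 (43.3% of all genes). It was 24 of 30 when wild-type replicate 2 was left out (56.1% of all genes) and 25 of 30 when mutant replicate 1 was (55.1%). Mutant replicate 2 gave the highest of the 4 values in 18 of the 30 genes, against 32.8% of all genes. In 20 of the 30, replicate 2 exceeded replicate 1 in both genotypes, against 43.4% of all genes. Leaving out 1 array therefore also unbalances the replicate numbers. Scaling choices left the direction split nearly as it was, with 24 or 25 of 30 genes higher after quantile normalization, median centring or a pseudocount of 16.

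**Figure D5:**
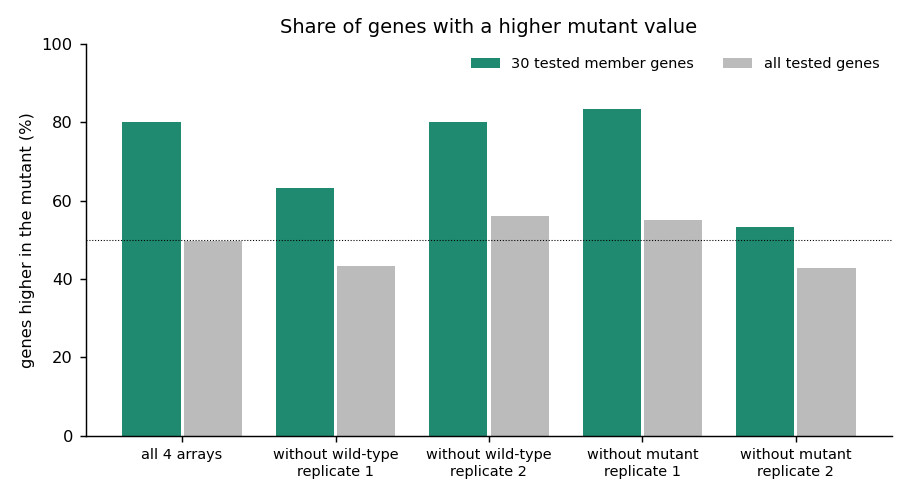
Percent of genes with a higher mutant value (vertical axis) among the 30 tested member genes (green) and all tested genes (grey), with all 4 arrays and with each array left out in turn. The member share is 80% with all arrays and 53.3% without mutant replicate 2.

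Other genes of semaphorin signalling, on a list of 47 co-receptors, GTPases, exchange factors, kinases and actin regulators, gave 39 tested genes, of which 25 were higher, 12 lower and 0 past an adjusted limma p of 0.05. Their median difference was 0.05, against 0 over all genes. At an unadjusted limma p under 0.05 there was 1 of the 39, Itga1, the alpha subunit of an integrin that also binds semaphorin 7A. The share at that p over all tested genes was 3.59%, so a count of 1 in 39 was not above it. Itga1 read 3.65 and 3.39 in wild type, close to the brightness limit, and 4.32 and 4.09 in the mutant. Its difference was 0.68 (SE 0.15, limma unadjusted p = 0.0172, adjusted p = 1). Its partner subunit Itgb1 differed by 0.12 (SE 0.13). The adhesion molecule Nrcam, a co-receptor of Nrp2, read 7.30 and 7.61 against 7.79 and 8.32, with a difference of 0.60 (SE 0.25, limma unadjusted p = 0.0881). Ranbp9, a scaffold protein that binds plexin A, differed by 0.30 (SE 0.26). At the other end were Arhgef12, the exchange factor below plexin B (-0.38, SE 0.38), the cofilin kinase Limk2 (-0.34, SE 0.13) and Gipc1, which binds the neuropilin tail (-0.10, SE 0.08).

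Markers of other cell types were set beside the plexins. Endothelial markers were higher in 14 of 16 tested genes, with a median of 0.16, and their summed linear value ran from 4668 to 4797 in wild type and from 5096 to 5983 in the mutant, with 0 of 16 at the lowest value. Red cell markers were higher in 10 of 10 tested genes (median 0.38), with sums of 67509 and 68322 in wild type and 78083 and 78724 in the mutant. Both sums, like Plxnc1 and Plxnd1, were higher in both mutant arrays than in either wild-type array. The same held for the 11 neuroepithelium markers (9 higher, 2 lower). Their sums were 48996 and 50519 in wild type and 53714 and 55471 in the mutant. It held as well for the signalling list, at 52149 and 52667 against 53113 and 56632. Sums of linear values are set mostly by the brightest genes, such as Hbe1 and Hbz for red cells. For neuroepithelium these were Vim, Sox2 and Lhx2. Kdr, the brightest endothelial marker, is also on the signalling list. The part of any of these lists in the plexin values was not tested. Whether Plxnd1 moves with the endothelial sum within a genotype was not tested, and 2 arrays cannot show it. Of 9 macrophage and microglia markers, 8 lay under the brightness limit in all arrays, and their sum was between 50.5 and 52.3 in all 4. Neuron markers were split, with 5 of 12 tested genes higher, 6 lower and sums of 3309 to 3689 in wild type and 3428 to 3767 in the mutant; Mapt, Nefl, Snap25 and Syt1 were dim. Head mesenchyme markers were higher in 5 and lower in 6 of 11 tested genes, with sums from 8765 to 8878 in wild type and from 7311 to 8528 in the mutant. Surface ectoderm markers were higher in 2 and lower in 3 of 6, with sums from 419 to 498 in wild type and from 393 to 421 in the mutant. Of these 6, 3 had an unadjusted limma p under 0.05: Krt18 (-0.73) and Epcam (-0.92), lower, and Cdh1 (0.59), higher. The counts were 2 of 16 endothelial, 2 of 10 red cell, 2 of 12 neuron, 1 of 11 mesenchyme and 0 of 11 neuroepithelium genes. The share over all tested genes was 3.59%.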

How the data were processed

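Total RNA (10 µg, TRIZOL) of E11.5 telencephalon was labelled with biotin and measured on 4 arrays, per the labels' protocols. The authors deposited 1 log2 value per probe set and array, for which the submitters' processing notes name GCRMA, with a version not given in the sources used here. This method removes a sequence-based background, normalizes between arrays and summarises probes. That the deposited scale is log2 was judged from its range (2.07 to 16.13). Arrays have no read depth, so precision is limited by their number.

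The 31099 probe sets include 57 controls, which were dropped, and 12417 with a mean under the 40th percentile were not tested. Gene symbols came from the platform annotation (1 symbol for 20826 probe sets, several for 436, none for 9780), and 66 of 67 member probe sets matched the same symbol in the RefSeq gene table; Micalcl keeps the annotation's name. limma (3.58.1, R 4.3.3) fitted genotype alone over 18625 probe sets with Benjamini-Hochberg adjustment. An exact permutation test of 2 arrays against 2 cannot give p under 0.333 and was not used. The fit was tested on simulated data. Where a gene has several probe sets, its brightest stands for it. Genes given in full were the brightest of each family, those at an unadjusted p under 0.05 or with separate groups differing by at least 0.5, the 8 highest and 8 lowest differences, and, of the signalling list, the 3 highest and 3 lowest. Itgb1 and the ligands of bright receptors were added after their values were seen. Members and lists were chosen with earlier results of these data known. Alternatives changed the filter, scaling, low values, zero-variance probe sets, the replicate term and the arrays used.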

Additional observations from a re-analysis of the deposited data

How the results depend on the processing

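Over the alternatives run, 0 member probe sets passed an adjusted limma p of 0.05, and the lowest adjusted p of a named member was 0.706. Of 266 recomputed differences of the 25 named probe sets, 247 kept their sign or were 0 and 19 turned. Of those 19, 18 turned with 1 array left out (the lone array of a genotype is then assumed to vary like the others). Many of the 247 could not turn. Changing the filter, removing zero-variance probe sets or adding the replicate term leaves each difference as it was. Centring on medians moved all differences by the same amount, which was smaller than any named difference. Where a sign turned, the difference ran from -0.068 to 0.63 for Sema3a, -0.17 to 0.38 for Sema4a, -0.41 to 0.36 for Sema4b, -0.055 to 0.66 for Sema4g, -0.14 to 0.19 for Sema5a, -0.40 to 0.090 for Sema6a and -0.051 to 0.13 for Sema6d. For the receptors it ran from -0.021 to 0.14 for Plxna1 and -0.040 to 0.16 for Plxnb2, and for the effectors from -0.25 to 0.096 for Crmp1, -1.09 to 0.98 for Dpysl3 and -0.19 to 0.23 for Dpysl5. The array whose loss turned the sign was mutant replicate 2 for Sema3a, Sema4a, Sema5a, Plxna1 and Dpysl5, mutant replicate 1 for Sema4b, Sema4g, Sema6a, Crmp1 and Dpysl3, wild-type replicate 1 for Sema6d, Plxna1, Plxnb2 and Dpysl5, and wild-type replicate 2 for Sema4b, Sema5a, Crmp1 and Dpysl3. With the pseudocount of 16, Dpysl3 turned to 0.040.

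With 1 array left out, the count of member probe sets at an unadjusted p under 0.05 ran from 1 to 7 (3.20% to 6.38% of all tested probe sets), the count with separate groups and a difference of at least 0.5 from 3 to 7 (6.40% to 8.27% of all), and the median difference of member genes from 0.015 to 0.21. Same-numbered arrays deviated together over all tested probe sets (correlation 0.43), but no label ties the numbers to litters and there are 2 arrays per genotype, so they were not taken as pairs. With the replicate block, 4 member probe sets had an unadjusted limma p under 0.05 (6.41% of all), against 3 without it (3.65% of all). Under that block 0 passed the adjusted threshold. The median difference stayed 0.085, because a replicate term balanced over the genotypes cannot move a difference. Separate groups have no value under that term. Over all probe sets, 1 passed with the stricter filter and 2 each after quantile normalization, after centring on medians and with zero-variance probe sets removed, against 0 in the reported fit, and none was a member.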
